A study of Mus musculus with 4 samples.

Results

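The mitochondrial ribosomal protein genes were examined in BAL fluid ILC2s, the group 2 innate lymphoid cells recovered by washing the airways. Members were the rows of the expression tables whose gene symbol starts with Mrpl or Mrps and a digit, which gave 78 of 24537 genes in all. The study set the response to an acute cytokine stimulus beside that to chronic allergen. IL-33, an alarmin that activates ILC2s directly, was given in 3 doses of 0.5 µg, and HDM, an extract of house dust mites, at 25 µg per dose 3 times a week for 5 weeks. Cells were taken 1 day after the last dose from GATIR mice of 8 to 16 weeks, which carry a YFP reporter in the *Gata3* gene, and were sorted as Lineage-Sca-1+YFP+. The sample labels give the IL-33 mice as Gata3-YFP/YFP with a CD25High population and the HDM mice as Gata3-YFP/WT with a CD25Low population. The methods state homozygous mice only and no CD25 gate, so reporter dose and CD25 level cannot be told apart from the stimulus. Each group had 2 libraries, named replicates 1 and 2. The number of mice behind a library was not given in the sources used here, and the p-values below rest on how far the libraries of a group differ, a spread that may be technical alone.

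Mitochondria keep a ribosome of their own, which makes the few proteins that mitochondrial DNA encodes, all of them subunits of the oxidative phosphorylation complexes. Its ribosomal RNAs come from mitochondrial DNA, whereas every one of its proteins is made from a nuclear gene and imported. A large subunit forms the peptide bond and holds the exit tunnel, a small subunit reads the mRNA, and each is built from proteins with a counterpart in bacteria together with proteins found only in mitochondrial ribosomes. Activated lymphocytes are known for enlarging their mitochondria and the machinery that makes mitochondrial proteins.

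The 4 libraries held 10696041 to 12054781 reads in genes in the IL-33 group and 15650722 to 16092268 in the HDM group. Values are RPKM, which scale the reads of a gene to its exon length and to the mapped reads of the library, and the 9523 genes that averaged 2 RPKM or more over the libraries were tested. All 14 ILC2 markers had reads in every library. Their summed levels were 3475 to 3660 RPKM in the IL-33 libraries against 2645 to 2838 RPKM in the HDM libraries. Single markers went both ways, with a median log2 fold change of 0.01. Of the 14, limma called 2 higher after IL-33, *Il2ra* and *Il5*, and 2 higher after chronic HDM, *Gata3* and *Il1rl1*. The shares called over all tested genes were 2.80% and 0.536%. *Gata3* was at 14.9 and 18.9 RPKM in the IL-33 libraries against 216.4 and 194.9 RPKM in the HDM libraries. The markers *Cd4*, *Cd5*, *Cd8a*, *Cd8b1*, *Ms4a1* and *Pax5* were at 0 in all 4 libraries. Of other lymphoid and basophil markers, *Cd3g* was at 68.8 to 101.4 RPKM over the 4 libraries, *Cd79b* was at 38.4 and 27.4 RPKM in the IL-33 libraries against 8.74 and 6.67 RPKM in the HDM libraries, and *Mcpt8*, at 45.8 and 39.2 against 0 and 0 RPKM, was called higher after IL-33. The 15 macrophage markers summed to 316 and 1339 RPKM in the IL-33 libraries against 3182 and 9475 RPKM in the HDM libraries, although the sort removed CD11b+ and CD11c+ cells. None was at 0 in all libraries, but 6 were at 0 in HDM replicate 1 and 0 in HDM replicate 2. In the IL-33 libraries 2 and 3 were at 0. Of the 3182 RPKM in HDM replicate 1, *Chil3* held 2144 and *Lyz2* 933. Of 11 tested, 0 macrophage markers were called by limma and 4 were lower after IL-33 at an unadjusted p under 0.05, as were 11.2% of all tested genes. At an adjusted p under 0.05 from limma and a log2 change of more than 1, 3 were higher after chronic HDM, *Lyz2*, *Mertk* and *Adgre1*. This threshold was passed in the same direction by 4.78% of all tested genes. The 45S ribosomal RNA took 3.45% to 4.95% of gene reads in the former and 17.4% to 25.4% in the latter. The 26 cell cycle genes summed to 1978 and 2129 RPKM in the IL-33 libraries against 145 and 179 RPKM in the HDM libraries. The part of these differences in the results on the mitochondrial ribosome was not tested, and in bulk RNA fewer cells of a type and less RNA per cell cannot be told apart.

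As a family, the mitochondrial ribosomal protein mRNAs made up more of the RNA after IL-33 than after chronic HDM. They took 0.640% and 0.593% of gene reads in the IL-33 libraries, with 95% Wilson intervals of 0.635% to 0.644% and 0.589% to 0.598%. In the HDM libraries they took 0.389% and 0.326%, with intervals of 0.386% to 0.392% and 0.323% to 0.329%. These intervals treat reads as independent, although reads without molecular identifiers are not independent molecules. They may thus be too narrow even for counting error, and they leave out the spread between libraries. The groups did not overlap, and the ratio of the mean shares was 1.72. Summed over the 78 genes, the level was 5487 and 5002 RPKM in the IL-33 libraries against 3186 and 2787 RPKM in the HDM libraries, a mean of 5244 ± 343 against 2987 ± 282 RPKM (SD, n = 2 each). With the reads of 45S ribosomal RNA left out of the total, the shares were 0.673% and 0.614% in the IL-33 libraries against 0.471% and 0.437% in the HDM libraries, and the ratio was 1.42.

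Counted gene by gene, 5 of the 77 tested members passed the test as higher after IL-33, *Mrpl45*, *Mrpl37*, *Mrpl28*, *Mrps12* and *Mrps7*, and 0 as higher after chronic HDM. Called means a Benjamini-Hochberg adjusted p under 0.01 from limma, over all 9523 genes, with a change of more than 1 on the log2 scale. The 5 are 6.49% of the tested members, beside 2.80% of all tested genes called higher after IL-33 and 0.536% called higher after chronic HDM. At an unadjusted p under 0.05 from the same limma fit, 45 members were higher after IL-33 and 2 were lower, beside 25.5% and 11.2% of all tested genes, to which the counts at this threshold below are also to be set. With the adjusted p relaxed to 0.05, 21 members passed as higher after IL-33 and 0 as higher after chronic HDM, beside 13.8% and 4.78% of all tested genes. The levels of both IL-33 libraries lay above those of both HDM libraries for 57 members, or 74.0%, where 41.7% of all tested genes did so, and below them for 3 members, *Mrpl52*, *Mrpl33* and *Mrpl11*, where 23.5% of all tested genes did. For the other 17 the libraries of the groups overlapped. The median log2 fold change was 0.85 over the members, with the middle 50% between 0.37 and 1.22, and 0.28 over all tested genes. It was positive for 66 of the 77 tested members, beside 5797 of all 9523 tested genes. With 2 libraries a group, the smallest two-sided exact permutation p for a single value is 0.333.

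**Figure D1:**
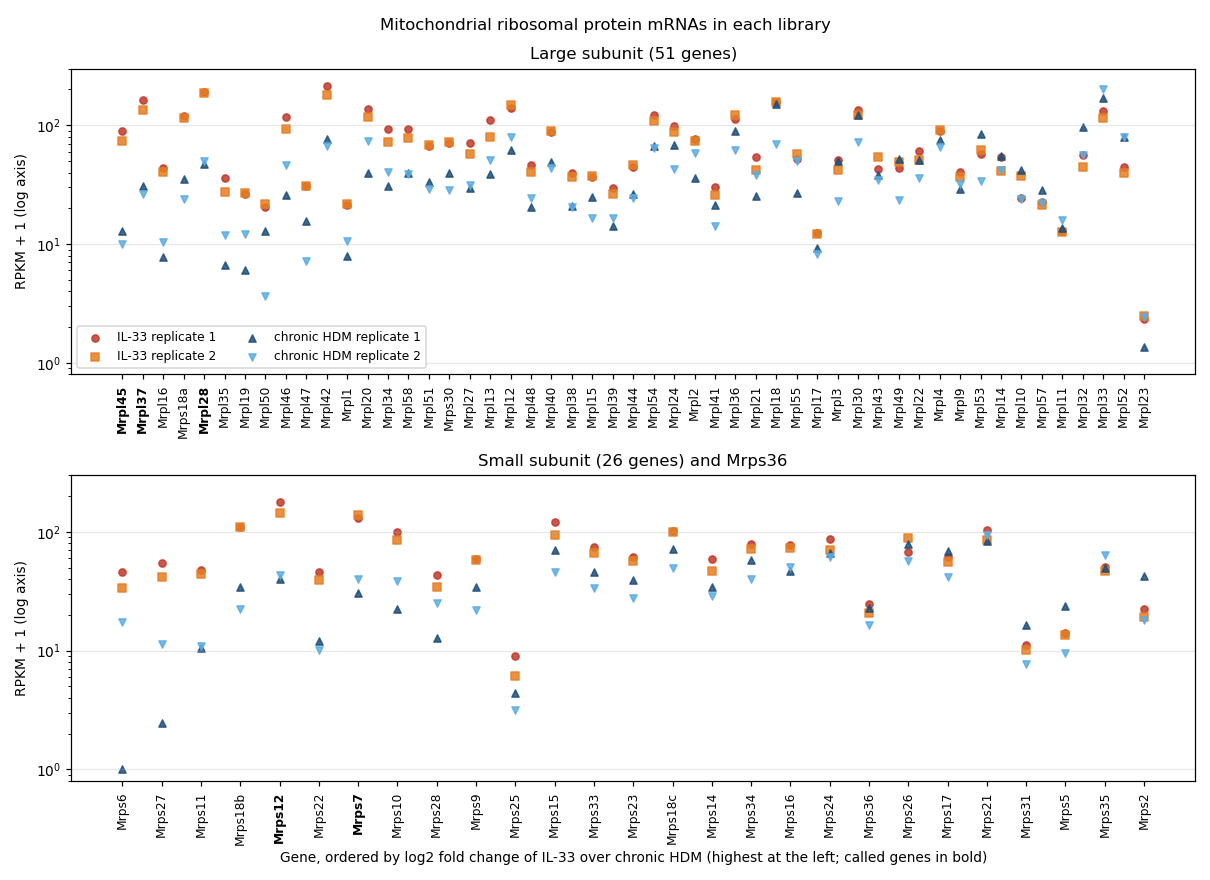
Level of each of the 78 mitochondrial ribosomal protein mRNAs in the 4 libraries as RPKM + 1 on a log axis, 1 point per library, with the 51 large subunit genes above and the 26 small subunit genes and Mrps36 below. Genes run from the highest log2 fold change of IL-33 over chronic HDM at the left to the lowest at the right, with Mrpl23, which was not tested, last above. The 5 called genes are in bold, and the points of the IL-33 libraries lie above those of the HDM libraries for 57 of the tested genes.

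Fold changes shifted when single libraries were left out. The members' median log2 fold change was 0.73 without IL-33 replicate 1 and 0.90 without IL-33 replicate 2. It was 0.91 without HDM replicate 1 and 0.76 without HDM replicate 2, against 0.85 in the fit reported. With 1 library left in a group, the spread came from the other group alone, so the calls of these fits are not compared. Scaling also mattered, since the median log2 fold change of all tested genes moved from 0.28 to -0.0029 with quantile normalization, to 0.05 with median-of-ratios scaling and to 0.08 with 45S ribosomal RNA left out. Relative to those values the members' median stood 0.56 higher in the fit reported, and 0.40, 0.55 and 0.55 higher under the 3 scalings. The number of members with a positive fold change was 54, 61 and 62 there, and the number over all tested genes is not given for these scalings.

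The large subunit had 51 genes and 50 tested, of which 3 were called, with a median log2 fold change of 0.86. *Mrpl28*, the counterpart of bacterial L28, was at 189.7 and 184.5 RPKM in the IL-33 libraries and at 46.4 and 49.3 RPKM in the HDM libraries. The replicates lay close together in both groups, and the log2 fold change was 1.95 with a standard error of 0.19 (adjusted p = 0.00687, limma). *Mrpl37*, a protein without a bacterial counterpart, was at 162.6 and 133.2 RPKM in the IL-33 libraries against 29.7 and 25.4 RPKM in the HDM libraries. Both HDM libraries lay far below both IL-33 libraries, and the log2 fold change was 2.38 ± 0.23 (SE, adjusted p = 0.00687, limma). *Mrpl45*, which sits at the mouth of the exit tunnel and ties the ribosome to the inner membrane, was at 89.0 and 72.9 RPKM in the IL-33 libraries against 11.97 and 8.98 RPKM in the HDM libraries. It had the largest log2 fold change of the 5 called members, 2.84 ± 0.29 (SE, adjusted p = 0.00718, limma). In mm10 the genes lie at chr17:26123503-26126613 (*Mrpl28*), chr4:107055874-107066866 (*Mrpl37*) and chr11:97315716-97329920 (*Mrpl45*).

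The small subunit had 26 genes, all tested, of which 2 were called, with a median log2 fold change of 0.84. *Mrps12*, the counterpart of bacterial S12 at the decoding centre, was at 178.5 and 142.2 RPKM in the IL-33 libraries against 38.8 and 42.3 RPKM in the HDM libraries. The log2 fold change was 1.95 ± 0.22 (SE, adjusted p = 0.00815, limma). *Mrps7*, the counterpart of bacterial S7 in the head of the subunit, was at 129.8 and 137.7 RPKM in the IL-33 libraries against 29.8 and 39.4 RPKM in the HDM libraries. Both HDM libraries lay far below both IL-33 libraries for each gene, and the log2 fold change of *Mrps7* was 1.93 ± 0.23 (SE, adjusted p = 0.00955, limma). Over the 15 alternative fits the log2 fold change of the 5 called members stayed between 1.43 and 3.03, and none of the 5 reversed. In mm10 *Mrps12* lies at chr7:28739641-28741781 and *Mrps7* at chr11:115604151-115607624.

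Promoter sequence is shown here for the members at both ends of the range of fold changes. RefSeq promoters of GRCm38.p6, from 250 bases before to 50 bases after the start, were matched to 69 of the 78 members, and 49 of these starts were the same as in the expression tables. The letters AAGATGGC, which fit the binding motif of the factor YY1, were searched on both strands and occurred in 12 member promoters, or 17.4%, beside 3.30% of all 17563 promoters and 5.74% of those of tested genes. These 12 included 6 of the 12 members with the highest fold changes, and 3 of the 5 called members. The 30 bases around the match are shown for 5 of these 6, 5′ to 3′ on the strand of the gene, with the matched letters in capitals.
Mrps27, chr13:99344789-99344818, plus strand: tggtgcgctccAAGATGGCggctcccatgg
Mrpl37, chr4:107066822-107066851, minus strand: ctgcacgggcaAAGATGGCggcgtccaggt
Mrps18a, chr17:46111004-46111033, plus strand: aggtgcgttccAAGATGGCggccctcaggg
Mrps7, chr11:115604147-115604176, plus strand: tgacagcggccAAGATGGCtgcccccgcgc
Mrps11, chr7:78783013-78783042, plus strand: ctacgggcgccGCCATCTTtctgtcttccc
In *Mrps27*, *Mrpl37*, *Mrps18a* and *Mrps7* the letters lay 12 to 27 bases into the transcript. In *Mrps11* they read on the opposite strand, 107 bases before the start, inside the transcribed part of *Mrpl46*, a neighbouring gene that runs the other way.

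Some members lie in head-to-head pairs, in which the start sites of both genes lie close together and transcription runs apart. *Mrps11* and *Mrpl46*, 1 protein of each ribosomal subunit, start 42 bases from each other. *Mrps12* starts 187 bases from *Sars2*, the mitochondrial seryl-tRNA synthetase. The stretches between the starts are shown for these 2 pairs, in which both genes had a higher mean level after IL-33. This was not particular to them. Both genes were also higher in other pairs, such as *Mrps27* with *Ptcd2* and *Mrpl47* with *Ndufb5*, but not in all, as with *Mrps7* and *Gga3*. The second stretch, of 146 bases, ends as printed just before the RefSeq start of *Mrps12*. That start lies before the start in the tables, so the bases between those 2 starts are not shown. Capitals mark GGGCGG, the GC box, in the first stretch, and CCAAT, the CCAAT box, in the second, each searched on both strands. The second stretch also holds a GC box on the opposite strand, 131 bases before the RefSeq start of *Mrps12*, which is left in lower case.
Mrps11 to Mrpl46, chr7:78783090-78783130, plus strand: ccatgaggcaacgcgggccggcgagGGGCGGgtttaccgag
Mrps12 to Sars2, chr7:28741822-28741967, minus strand: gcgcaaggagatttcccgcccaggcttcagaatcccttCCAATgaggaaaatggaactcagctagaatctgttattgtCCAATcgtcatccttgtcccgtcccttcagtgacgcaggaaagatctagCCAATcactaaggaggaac
The GC box occurred in 47.8% of member promoters and 66.0% of those of tested genes, and the CCAAT box in 39.1% and 39.5%. A match describes the letters in the window and shows no binding.

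For contrast, the letters CCGGAAG, the core of the ETS family motif that GABP binds, are shown for the 2 members with the lowest fold changes, again 5′ to 3′ on the strand of the gene and with the match in capitals.
Mrpl52, chr14:54426851-54426880, plus strand: caagatgtcggCTTCCGGttttcccggcag
Mrpl52, chr14:54426900-54426929, plus strand: ggccacgcccaCTTCCGGttcccttgctcc
Mrpl33, chr5:31613937-31613966, plus strand: ccgcgcatgccCCGGAAGtagtcgttgagc
The ETS letters occurred in 26 member promoters, or 37.7%, beside 2111 of all 17563 promoters and 22.2% of those of tested genes. They also occurred in *Mrps27*, *Mrps18a* and *Mrps12*, which had some of the highest fold changes.

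The subunits and the evolutionary classes had like medians, and the differences between them were not tested. Large subunit proteins with a bacterial counterpart had a median log2 fold change of 0.65 over 29 tested genes, 1 called, and those specific to mitochondria 0.94 over 21, 2 called. In the small subunit the median was 0.74 over 15 genes with a bacterial counterpart, 2 called. It was 0.85 over 11 genes classed here as mitochondria-specific, with *Mrps28* (1.11) counted among them. Of these 11, 0 were called by limma and 6 were higher after IL-33 at an unadjusted p under 0.05. Each of the 4 medians lay above the 0.28 of all tested genes.

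By place in the ribosome, the highest median was that of the 6 tested proteins of the decoding centre and mRNA path, 1.51, with *Mrps12* and *Mrps7* called. *Mrps11*, of the same region, was at 46.3 and 42.8 RPKM in the IL-33 libraries against 9.55 and 9.98 RPKM in the HDM libraries. Its log2 fold change was 2.08 ± 0.27 (SE, adjusted p = 0.0109, limma), just outside the limit of 0.01. *Mrps24*, of the mRNA entry, and *Mrps5* were at the other end of this group, with log2 fold changes of 0.28 and -0.13.

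The exit tunnel proteins had a median log2 fold change of 0.85 over the 7 tested of 8, with *Mrpl45* called. *Mrpl24*, the counterpart of bacterial L24 and the most abundant of them, was at 98.2 and 86.97 RPKM in the IL-33 libraries against 66.7 and 42.0 RPKM in the HDM libraries. The groups did not overlap, but the spread between the HDM libraries was wide against the difference, with a log2 fold change of 0.79 ± 0.29 (SE, adjusted p = 0.109, limma). Of the exon bases of *Mrpl24*, 26.3% are shared with *Rrnad1* on the opposite strand. *Mrpl23*, the counterpart of bacterial L23, was the only member under the minimum of 2 RPKM, at 1.33 and 1.48 RPKM in the IL-33 libraries against 0.362 and 1.42 RPKM in the HDM libraries. It was the lowest member in 3 of the 4 libraries and was not tested.

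The 7 proteins of the central protuberance, the crest of the large subunit, had a median of 0.94. Both IL-33 libraries lay above both HDM libraries for all 7, as they did for 41.7% of all tested genes. Of the 7 proteins, limma called 0, and 5 were higher after IL-33 at an unadjusted p under 0.05. *Mrpl18*, the most abundant, was at 156.1 and 157.1 RPKM in the IL-33 libraries against 150.5 and 69.1 RPKM in the HDM libraries. HDM replicate 1 nearly reached the IL-33 libraries while replicate 2 was far lower, and the log2 fold change of 0.61 ± 0.38 did not pass (SE, adjusted p = 0.294, limma). The 5 proteins of the stalk, where translation factors dock, and of its base had the lowest median, 0.16, with 0 called by limma and 2 higher after IL-33 at an unadjusted p under 0.05. *Mrpl12*, the stalk protein that also binds mitochondrial RNA polymerase, was at 138.5 and 146.8 RPKM in the IL-33 libraries against 60.8 and 77.9 RPKM in the HDM libraries. Its log2 fold change of 1.04 ± 0.21 had an adjusted p of 0.0278 from limma, and 13.05% of its exon bases are shared with *Gm16755* on the opposite strand.

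**Figure D2:**
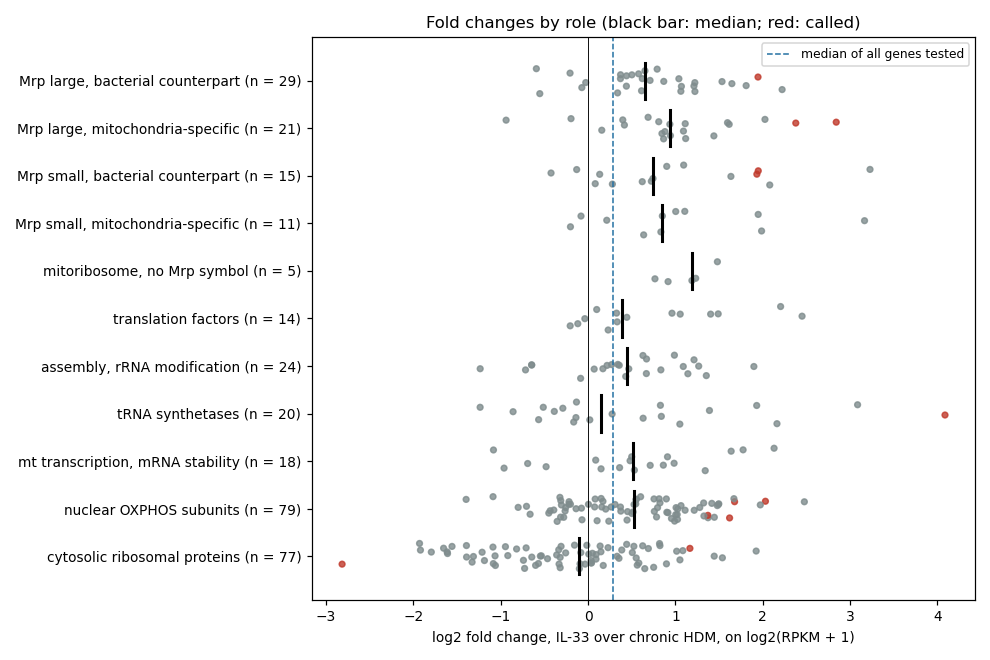
Each tested gene by role, placed by its log2 fold change (IL-33 over HDM, from log2(RPKM + 1) values), with 4 classes of Mrp genes above, 5 lists of other genes for mitochondrial gene expression and 2 related gene families below. Each point is a gene, called genes are red, black bars are medians and the dashed line is the median of all tested genes, 0.28. The 4 Mrp medians, from 0.65 to 0.94, lie to the right of the dashed line, and that of the cytosolic ribosomal proteins, -0.10, lies to its left.

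Beyond the called genes, 2 small subunit mRNAs had the highest log2 fold changes of all members and did not pass, with levels far apart in the HDM libraries. *Mrps6*, the counterpart of bacterial S6, was at 44.6 and 32.5 RPKM in the IL-33 libraries against 0 and 16.4 RPKM in the HDM libraries. HDM replicate 1 held 0 of its reads, which allows up to 0.201 RPKM, and the log2 fold change of 3.23 had a standard error of 1.29 (adjusted p = 0.136, limma). Of its exon bases, 19.9% are shared with *Gm49711* and 10.4% with *Slc5a3*, both on the same strand. *Mrps27*, a mitochondria-specific protein with RNA-binding repeats, was at 54.0 and 40.3 RPKM in the IL-33 libraries against 1.47 and 10.4 RPKM in the HDM libraries. It fell short in the same way, with 3.17 ± 0.74 (SE, adjusted p = 0.0382, limma), and 24.2% of its exon bases are shared with the antisense gene *6430562O15Rik*.

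Some other members had replicates close together in both groups and adjusted p values just above the limit of 0.01. *Mrpl16*, the counterpart of bacterial L16, was at 42.8 and 39.5 RPKM in the IL-33 libraries against 6.79 and 9.43 RPKM in the HDM libraries (log2 fold change 2.22, adjusted p = 0.012, limma). *Mrps22*, a mitochondria-specific protein, was at 45.01 and 38.3 RPKM in the IL-33 libraries against 11.1 and 9.06 RPKM in the HDM libraries (1.95, adjusted p = 0.0132, limma). For both, the lowest IL-33 level was more than 3 times the highest HDM level. *Mrpl42*, the most abundant member in IL-33 replicate 1, was at 211.2 and 178.2 RPKM in the IL-33 libraries against 75.9 and 66.1 RPKM in the HDM libraries, with a log2 fold change of 1.44 (adjusted p = 0.012, limma).

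The mouse has 3 *Mrps18* paralogs, which take different places. *Mrps18a*, now known as a large subunit protein, was at 119.4 and 114.5 RPKM in the IL-33 libraries against 34.2 and 22.9 RPKM in the HDM libraries (log2 fold change 2.03, adjusted p = 0.0109, limma). *Mrps18b* was at 108.5 and 109.6 RPKM in the IL-33 libraries against 33.6 and 21.3 RPKM in the HDM libraries (1.99, adjusted p = 0.0125, limma). *Mrps18c*, the paralog that takes the place of bacterial S18, was at 101.2 and 97.9 RPKM in the IL-33 libraries against 71.2 and 49.0 RPKM in the HDM libraries (0.74, adjusted p = 0.0956, limma). After IL-33 the 3 paralogs were within a narrow range of each other, and after chronic HDM *Mrps18c* lay above the other two. Of the exon bases of *Mrps18b* and *Mrps18c*, 30.5% and 23.2% are shared with other annotated genes.

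For 2 more members the symbol and the protein's place differ. *Mrps30*, known as a large subunit protein, was at 70.0 and 71.4 RPKM in the IL-33 libraries against 38.9 and 27.3 RPKM in the HDM libraries, with a log2 fold change of 1.09 (adjusted p = 0.0417, limma). *Mrps36*, now known as a part of the alpha-ketoglutarate dehydrogenase complex, was at 23.9 and 19.6 RPKM in the IL-33 libraries against 21.7 and 15.5 RPKM in the HDM libraries. Its libraries overlapped, and its log2 fold change of 0.22 (adjusted p = 0.652, limma) turned to -0.030 with quantile normalization and to -0.025 with median-of-ratios scaling.

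The 6 members at the low end did not pass the test in either direction. *Mrpl52*, a mitochondria-specific large subunit protein, was at 43.4 and 38.3 RPKM in the IL-33 libraries against 79.2 and 78.7 RPKM in the HDM libraries. The groups did not overlap and the HDM replicates were nearly equal, with a log2 fold change of -0.94 ± 0.22 (SE, adjusted p = 0.0371, limma), within the fold limit of 1. *Mrpl33*, the counterpart of bacterial L33, was at 130.8 and 113.7 RPKM in the IL-33 libraries against 167.4 and 202.8 RPKM in the HDM libraries (-0.59, adjusted p = 0.0923, limma). It was the most abundant member in both HDM libraries, and ranked 9 and 12 in IL-33 replicates 1 and 2. *Mrpl28*, the most abundant member in IL-33 replicate 2 and of rank 2 in replicate 1, ranked 26 and 19 in HDM replicates 1 and 2. Among the others, *Mrpl32*, the processing target of a mitochondrial protease, had a log2 fold change of -0.55, and *Mrps2* -0.42, with *Mrps2* at 0.19 without HDM replicate 1. *Mrpl11* and *Mrps35* had -0.21 and -0.20, with adjusted p values of 0.682 and 0.59 from limma.

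Levels of the members agreed well between the IL-33 libraries and less well between the HDM libraries. The SD of the log2 difference between replicates was 0.20 for IL-33 and 0.82 for HDM over the 77 tested members, beside 0.43 and 1.13 over all tested genes. After IL-33, 0 members differed by more than 1 on the log2 scale between the replicates, and after chronic HDM 12 did. *Mrps6*, *Mrps27* and *Mrpl50*, a mitochondria-specific large subunit protein, had the widest gaps, of 4.12, 2.20 and 1.82. The 5 called members were not among the 12. The number of members over 100 RPKM was 19 and 14 in the IL-33 libraries and 3 and 1 in the HDM libraries.

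**Figure D3:**
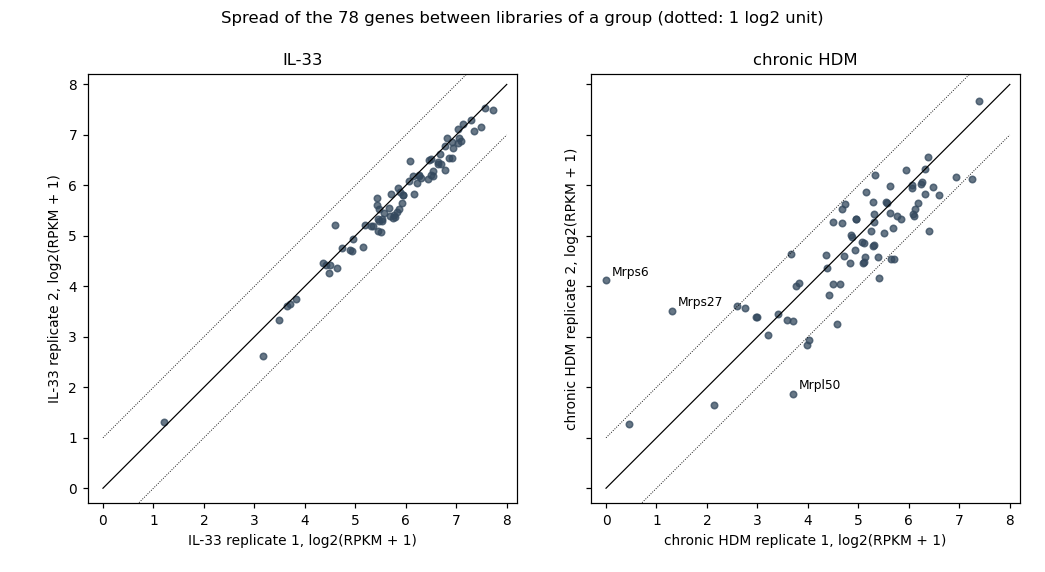
Levels of the 78 mitochondrial ribosomal protein mRNAs as log2(RPKM + 1) in replicate 1 (x axis) against replicate 2 (y axis), for IL-33 at the left and chronic HDM at the right, 1 point per gene. The solid line marks equal levels and the dotted lines a difference of 1 on the log2 scale. All tested genes lie between the dotted lines after IL-33, and 12 lie outside them after chronic HDM, of which the 3 with the widest gaps are named.

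The fold change of a member showed little relation to its exon length, mean level or GC content. Spearman's rho over the 77 tested members was 0.09 with length, 0.02 with mean level and 0.14 with GC, and over all tested genes -0.08, 0.18 and -0.09. These are descriptions over genes of the same libraries. Counting was over exons without regard to strand, so reads of overlapping genes cannot be told apart, and the values of *Mrpl53*, *Mrps34* and *Mrps25* are uncertain, since 88.0%, 70.6% and 69.8% of their exon bases are shared with another gene.

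With the promoter letters shown above, the members split unevenly. The 12 members with the YY1 letters had a median log2 fold change of 1.87, from -0.55 for *Mrpl32* to 3.17 for *Mrps27*, with 3 called. The 56 tested members without them had a median of 0.77, with 2 called, *Mrpl45* and *Mrpl28*. Over all tested genes the medians with and without these letters were 0.40 and 0.28. For the ETS letters the members' medians were 0.68 with and 0.88 without, and for the letters GCATGCGC, which fit a site of the factor NRF1, 0.36 over 8 members and 0.88 over the other 60. These splits were seen with the fold changes known and were not tested.

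**Figure D4:**
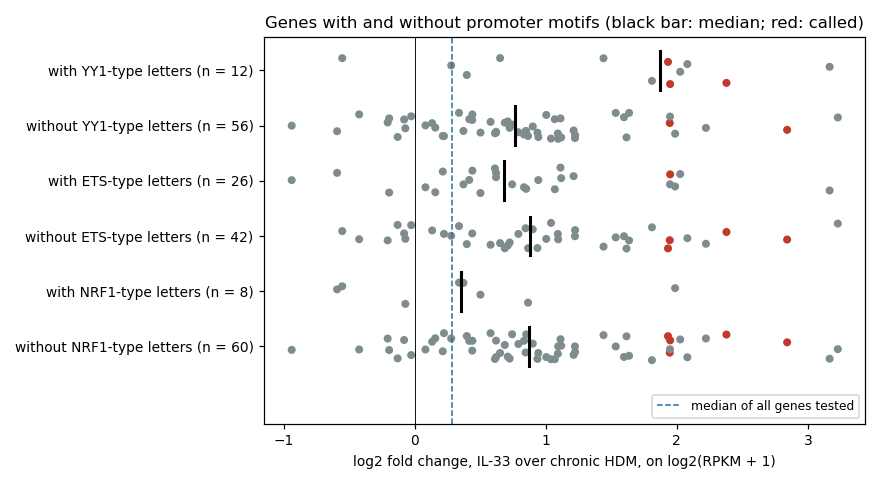
Tested members placed by log2 fold change (IL-33 over HDM, from log2(RPKM + 1) values), with and without each of 3 sets of promoter letters, 1 point per gene, with called genes in red, medians as black bars and the median of all tested genes, 0.28, as a dashed line. The median with the YY1 letters, 1.87, lies to the right of that without them, 0.77, whereas those with the ETS and NRF1 letters, 0.68 and 0.36, lie to the left of those without.

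Head-to-head neighbours within 1000 bases were found for 28 members, and 25 of the partners were tested. The median log2 fold change of these 25, which include the members *Mrps11* and *Mrpl46*, was 0.98, beside 0.28 over all tested genes. Of the 25, 1 was called higher after IL-33, *Sars2*, and 0 higher after chronic HDM, beside 2.80% and 0.536% of all tested genes. *Sars2* was at 17.96 and 19.5 RPKM in the IL-33 libraries against 0 and 0.345 RPKM in the HDM libraries, with a log2 fold change of 4.09 ± 0.45 (SE, adjusted p = 0.00795, limma). *Mrpl46*, the partner of *Mrps11* in the central protuberance, was at 115.5 and 91.9 RPKM in the IL-33 libraries against 24.7 and 45.01 RPKM in the HDM libraries (1.60, adjusted p = 0.0306, limma). For both genes of this pair the IL-33 libraries lay above the HDM libraries, and the transcripts share 7.97% of the exon bases of *Mrps11*. For *Mrps7*, the partner *Gga3*, a sorting adaptor of the Golgi, was at 8.73 and 9.19 RPKM in the IL-33 libraries against 14.1 and 8.81 RPKM in the HDM libraries, where the groups overlapped.

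The mitochondrial ribosome also holds proteins without an Mrp symbol, and 5 of 7 such names were matched. Both IL-33 libraries were above both HDM libraries for all 5, as for 41.7% of all tested genes. The median log2 fold change of the 5 was 1.19, and limma called 0, with 5 higher after IL-33 at an unadjusted p under 0.05. *Aurkaip1* was at 121.2 and 105.0 RPKM in the IL-33 libraries against 54.4 and 64.7 RPKM in the HDM libraries (0.92, adjusted p = 0.0389). *Chchd1* was at 71.7 and 70.3 RPKM in the IL-33 libraries against 37.7 and 45.2 RPKM in the HDM libraries (0.77, adjusted p = 0.0684). Both are small subunit proteins, and both had replicates closer to each other than to the other group.

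Genes that act on this ribosome had lower medians than the members, and the differences between lists were not tested. The 14 mitochondrial translation factors had a median of 0.39, with 0 called by limma and 5 higher after IL-33 at an unadjusted p under 0.05, a threshold that 25.5% of all tested genes passed in this direction. Of these, *Tsfm*, an elongation factor, was at 44.9 and 41.8 RPKM in the IL-33 libraries against 10.1 and 24.2 RPKM in the HDM libraries (1.40, adjusted p = 0.0785), and the initiation factor *Mtif3* had a log2 fold change of 0.44. The 24 tested genes of ribosome assembly and rRNA modification had a median of 0.45, with 0 called by limma, 7 higher and 1 lower after IL-33 at an unadjusted p under 0.05. The assembly factor *Rbfa* was at 70.0 and 72.7 RPKM in the IL-33 libraries against 43.9 and 35.7 RPKM in the HDM libraries (0.83, adjusted p = 0.0584), while *Ngrn* was at 37.5, 34.6, 30.4 and 38.6 RPKM with overlapping groups. The list of mitochondrial tRNA synthetases, which also held the tRNA amidotransferase genes *Gatb*, *Gatc* and *Qrsl1*, had a median of 0.15 over 20 genes. *Sars2* was the only one called, or 5.0%, beside 2.80% of all tested genes called higher after IL-33.

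Mitochondrial transcription and mRNA stability, with 18 genes tested, had a median of 0.52 and 0 called by limma, with 5 higher and 1 lower after IL-33 at an unadjusted p under 0.05. *Slirp*, which protects mitochondrial mRNAs, had overlapping groups (0.09, adjusted p = 0.831), as had *Mtpap*, the mitochondrial poly(A) polymerase (0.36, adjusted p = 0.532). Of 8 tested regulators of mitochondrial biogenesis 0 were called by limma, with 3 higher and 1 lower after IL-33 at an unadjusted p under 0.05 and a median of 0.17. *Myc* was at 90.6 and 101.7 RPKM in the IL-33 libraries against 60.1 and 21.1 RPKM in the HDM libraries (1.40, adjusted p = 0.102), with the HDM replicates far apart. *Nrf1* had a log2 fold change of 0.39 (adjusted p = 0.484), and *Ppargc1a* was listed at 0 in all 4 libraries.

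The cytosolic ribosome and the complexes that mitochondrial translation serves are given beside the members, and differences between these families were not tested. The 77 tested cytosolic ribosomal protein genes had a median log2 fold change of -0.10, with 1 called higher after IL-33, *Rpl4* (1.17), and 1 called higher after chronic HDM, *Rps28* (-2.82), and 14 higher and 26 lower after IL-33 at an unadjusted p under 0.05. The 79 tested nuclear subunits of oxidative phosphorylation had a median of 0.53. Of these, 4 (5.06%) were called higher after IL-33, among them *Ndufa9* (2.03), *Atp5g1* (1.68) and *Atp5o* (1.37), and 0 higher after chronic HDM. At an unadjusted p under 0.05 from limma, 38 were higher and 4 lower after IL-33. Over all tested genes, 2.80% were called higher after IL-33 and 0.536% higher after chronic HDM, and 25.5% and 11.2% passed the unadjusted threshold. The share of the members called higher after IL-33 was 6.49%.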

How the data were processed

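RNA of sorted BAL fluid ILC2s had been sequenced by the authors as unstranded Smart-seq2 libraries in single reads of 51 bases and aligned to mm10 with HISAT2 (version 2.0.4 per the labels). The deposited RPKM values were made by the authors with HOMER, per the file headers, from reads counted over the exons of 1 RefSeq transcript per gene and normalized to 10000000 reads. RPKM times exon length gave whole reads within 0.1 read for 99.785% to 99.961% of values. Values were transformed here as log2(RPKM + 1), and genes with a mean of 2 RPKM or more were fitted with limma 3.58.1 in R 4.3.3 (empirical Bayes with intensity trend, two-sided, Benjamini-Hochberg adjustment), and a gene was called where the adjusted p was under 0.01 and the change exceeded 1 on the log2 scale, after the study's thresholds. Fold changes are on the log2(RPKM + 1) scale, which understates the change of low genes. The study's own test was DESeq2 on counts, which were not used here. The fit was tested on simulated data. Members and gene lists were chosen with earlier results of these data known. Named were all called members, the 10 highest and 6 lowest by fold change, the most abundant member of each role, members under the minimum, members whose symbol names another subunit with the Mrps18 paralogs, and from other lists the called genes or, with 0 called, the 2 most abundant, while lists of cell markers are given as sums. Other members, single cell markers and the head-to-head partners were named with their values known. Exon overlaps came from GENCODE M21 (GRCm38), promoters from RefSeq GRCm38.p6, and neighbours from the tables' own mm10 coordinates. Some items are not reported here. Figures were drawn with matplotlib 3.10.9.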

Additional observations from a re-analysis of the deposited data

How the results depend on the processing

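The number of members called higher after IL-33, 5 in the fit reported, was 0 with a pseudocount of 0.1, with no minimum, with median-of-ratios scaling, with limma without the intensity trend and with limma-voom on the recovered reads, where 43, 42, 33, 35 and 29 members, of 2268, 2904, 1833, 2229 and 2085 genes, were higher at an unadjusted p under 0.05. It was 1 (Mrpl37) without 45S ribosomal RNA, 2 (Mrpl37 and Mrpl45) with quantile normalization, 10 with a pseudocount of 2, 11 with a minimum of 5 RPKM, 21 at an adjusted p under 0.05 and 23 without a fold limit there (of 394, 502, 1311 and 1424 genes called higher, against 267 in the fit reported), where 1 member, Mrpl52, was called higher after chronic HDM. Leaving out single libraries gave 0 to 26. With the replicate number as a block (replicate block) 15 members and 987 genes were called higher after IL-33. The deviations of same-numbered libraries from the group means had r = -0.04 over 9523 genes. With 2 libraries a group, this value cannot decide whether same-numbered libraries share more than a number. The members' median log2 fold change of 0.85 was 0.40 with quantile normalization, 0.59 with median-of-ratios scaling, 0.62 without 45S ribosomal RNA, 0.75 with limma-voom and 0.73 to 0.91 without single libraries. Its excess over all tested genes, 0.56, was 0.68 with no minimum, 0.49 with a minimum of 5, 0.40 with quantile normalization and 0.42 to 0.60 without single libraries. Mrps36 had -0.030 with quantile normalization and -0.025 with median-of-ratios scaling, and -0.0062 to 0.45 without single libraries, and Mrps2 -1.04 to 0.19. The cause of these shifts was not tested. Where 1 library of a group was left, its spread was taken from the other group. Calls of single members changed with these settings, while 54 to 70 members had a positive fold change in each of the 15 alternative fits. The number over all tested genes, 5797 of 9523 in the fit reported, is not given for these fits.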
